A study of Mus musculus with 25 samples.

Results

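Zinc-finger transcription factors of the EGR family, their NAB corepressors, 3 immediate early response (IER) genes and serum response factor were followed through the *soleus* transcriptome of WT and mD3AKO mice. The 10 genes, *Egr1*, *Egr2*, *Egr3*, *Egr4*, *Nab1*, *Nab2*, *Ier2*, *Ier3*, *Ier5* and *Srf*, were chosen by name, with their behaviour after exercise in these libraries known, out of 52636 genes in the count table. Of these, 9 passed the filter on low counts, which left 16340 genes for testing. *Egr4* had no count in any of the 25 libraries and was not tested.

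The *soleus* is a slow postural muscle of the lower hindlimb, and each of the 25 libraries came from 1 C57BL/6 mouse of 12 weeks. All mice carried *Dnmt3a* flox/flox alleles with exon 19 floxed. WT mice had no Cre, and mD3AKO mice carried mCK-Cre Tg, a Cre driven by the muscle creatine kinase promoter, so that satellite cells and non-muscle cells presumably keep *Dnmt3a*. Exercised mice ran for 30 min on a treadmill at 16 m/min and a 5% incline and were studied 60 min later, and rested mice spent 30 min on a sham treadmill. There were 5 rested WT mice (3 males, 2 females), 7 exercised WT mice (3 males, 4 females), 7 rested mD3AKO mice (4 males, 3 females) and 6 exercised mD3AKO mice (3 males, 3 females). Library totals ran from 22671457 to 37431801 counts with a median of 32189360, and 1 CPM (counts scaled to a fixed library size, with TMM factors) stood for 14.3 to 39.8 counts, 32.4 in median. *Dnmt3a*, the check of the genotype label, lay between 93.4 and 131 CPM in the WT libraries and between 34.5 and 53.9 CPM in the mD3AKO libraries. Ribosomal RNA genes took 39.5% of the counts of the smallest library, that of mD3AKO mouse 15 (male, at rest), against 7.76% to 13.0% in the other libraries. The females carried mouse numbers 1 to 6 and 20 to 25 and the males 7 to 19, so sex and the runs of mouse numbers cannot be told apart. The defining slow fiber genes were all expressed, and the 6 markers (*Myh7*, *Tnni1*, *Tnnt1*, *Myl2*, *Tnnc1*, *Myl3*) summed to between 20975 and 41116 CPM.

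Immediate early genes are transcribed within minutes of a stimulus without the need for new protein. SRF binds CArG boxes together with ternary complex factors of the ETS family, which answer to MAP kinase signalling, or with the MRTF coactivators, which answer to actin. Genes of the EGR family are classical targets of this arrangement, and their proteins bind a GC-rich element and switch on NAB2, a corepressor that damps them in turn. In muscle, EGR3 is known for the development of the muscle spindle, and EGR2 for myelination by the Schwann cells of the nerve.

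2 rested WT males, mice 11 and 13, had the 2 highest levels of *Egr1*, *Egr2*, *Egr3*, *Nab2*, *Ier2* and *Ier3* of all 25 libraries, and the group comparisons are given with and without them. *Egr1*, the best known of the EGR factors, reached 76.7 CPM in mouse 11 and 118 CPM in mouse 13, against 2.17 to 8.40 CPM in the other 10 rested mice and at most 33.1 CPM in the 13 exercised mice. The third rested WT male, mouse 14, was at 2.93 CPM. These libraries had 31460362 and 32683762 counts in all, and ribosomal RNA took 12.6% and 10.6% of them, so neither library was extreme in depth or in this measure of RNA composition. The comparison that sets them aside was chosen after their levels were seen.

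Promoter windows of 300 bases, from 250 bases before to 50 bases after an annotated start, were taken from RefSeq (GRCm38.p6) for 7 of the 10 genes, and those of *Egr1*, *Egr3* and *Ier2* were not analysed here. They were searched on both strands for the CArG box, the EGR element GCGTGGGCG, the TGACG core of the cAMP response element and the ETS element CCGGAA, with overlapping matches counted. Over 32851 promoter windows of the same length, 1.629% held a CArG box, 0.612% the EGR element, 20.812% the TGACG core and 14.898% the ETS element. The windows printed here are those of *Srf* and *Egr2*, which held CArG boxes, of *Nab1*, which held the EGR element, and of *Ier5*, the one member called for exercise with all 25 mice and both genotypes. Capitals mark the matches, and each window reads 5′ to 3′ on the strand of its gene.
Srf, chr17:46556113-46556412, minus strand: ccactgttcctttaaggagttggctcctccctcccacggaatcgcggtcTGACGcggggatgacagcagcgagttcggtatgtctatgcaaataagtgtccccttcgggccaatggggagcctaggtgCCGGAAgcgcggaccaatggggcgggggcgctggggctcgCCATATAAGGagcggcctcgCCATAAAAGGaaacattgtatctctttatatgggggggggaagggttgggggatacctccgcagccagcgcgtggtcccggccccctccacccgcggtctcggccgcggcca
Egr2, chr10:67537619-67537918, plus strand: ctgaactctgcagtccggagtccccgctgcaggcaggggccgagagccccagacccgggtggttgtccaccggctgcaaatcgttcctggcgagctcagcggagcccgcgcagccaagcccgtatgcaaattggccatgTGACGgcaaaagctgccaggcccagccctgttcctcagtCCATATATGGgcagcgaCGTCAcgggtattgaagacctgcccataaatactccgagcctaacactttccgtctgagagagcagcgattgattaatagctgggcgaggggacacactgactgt
Nab1, chr1:52500399-52500698, minus strand: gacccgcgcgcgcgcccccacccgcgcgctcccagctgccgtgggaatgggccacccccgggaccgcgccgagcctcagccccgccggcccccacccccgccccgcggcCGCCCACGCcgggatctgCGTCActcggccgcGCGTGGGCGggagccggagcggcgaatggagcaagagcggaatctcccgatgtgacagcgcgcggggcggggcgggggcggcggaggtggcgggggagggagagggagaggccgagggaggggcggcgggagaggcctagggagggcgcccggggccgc
Ier5, chr1:155099587-155099886, minus strand: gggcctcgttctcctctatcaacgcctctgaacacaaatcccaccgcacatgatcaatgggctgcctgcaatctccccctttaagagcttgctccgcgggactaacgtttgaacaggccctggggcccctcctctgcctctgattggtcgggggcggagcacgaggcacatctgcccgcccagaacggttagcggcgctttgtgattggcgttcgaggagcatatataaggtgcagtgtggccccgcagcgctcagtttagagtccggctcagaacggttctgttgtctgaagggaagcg
The *Srf* window held 2 CArG boxes, CCATATAAGG from -82 to -73 and CCATAAAAGG from -62 to -53 relative to the start site, with an ETS element from -122 to -117. *Egr2* had 5 annotated windows. The one shown held the CArG box CCATATATGG from -72 to -63 between TGACG cores, and 2 windows that overlap it held the same box. The window at chr10:67537316-67537615 held another CArG box, CCTTTTTTGG, and 3 matches of the ETS element, and the one at chr10:67535249-67535548, near the start of the gene in the count table, held none of these letters. *Nab1* held the EGR element on either strand, from -141 to -133 and from -109 to -101. *Egr4* held 2 TGACG cores, and the windows of *Ier3*, *Ier5* and *Nab2* held none of these letters.

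Among the EGR factors, *Egr1* (chr18:34859823-34864984, mm10) had the widest pooled spread within groups. In rested WT mice it was 6.98 and 4.48 CPM in females and 76.7, 118 and 2.93 CPM in males. In exercised WT mice it had a lowest value of 2.76, a median of 10.8 and a highest value of 15.0 CPM. Rested mD3AKO mice lay between 2.17 and 8.40 CPM with a median of 5.66 CPM, and exercised mD3AKO mice between 2.69 and 33.1 CPM with a median of 15.5 CPM. Rested and exercised mice overlapped in both genotypes, but the 3 exercised mD3AKO males, at 22.9, 31.2 and 33.1 CPM, lay above every rested mD3AKO mouse. All 6 exercised males lay between 10.8 and 33.1 CPM, and only 1 of 7 exercised females, at 12.9 CPM, entered that range. Of the 7 exercised females, 5 lay below every rested female.

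*Egr2* (chr10:67535475-67542188) showed the same mice at the top. It was 14.9 and 23.0 CPM in mice 11 and 13, and 0.280 to 2.64 CPM in the other rested mice. The median of exercised mice was 2.37 CPM in WT (1.40 to 4.23 CPM) and 2.51 CPM in mD3AKO (1.5 to 4.24 CPM). Every exercised mouse lay above the resting median of 1.04 CPM, and none reached mouse 11. *Egr3* (chr14:70077203-70082614) was low, with 13.4 and 14.8 CPM in mice 11 and 13 and 0.382 to 1.16 CPM in the other rested mice. Exercised WT mice had 0.531 to 1.54 CPM and exercised mD3AKO mice 0.498 to 1.80 CPM, ranges that overlapped the resting values of 1.16 CPM and below. At the depth of these libraries most *Egr3* values rested on few reads, with a median of 29 counts at rest and 37 counts after exercise. *Egr4* (chr6:85511121-85513589) had 0 counts in every library. A floor of 3 counts would correspond to between 0.0755 and 0.210 CPM in these libraries, so *Egr4* was not detectable at this depth, and this limit covers counting error only.

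**Figure D1:**
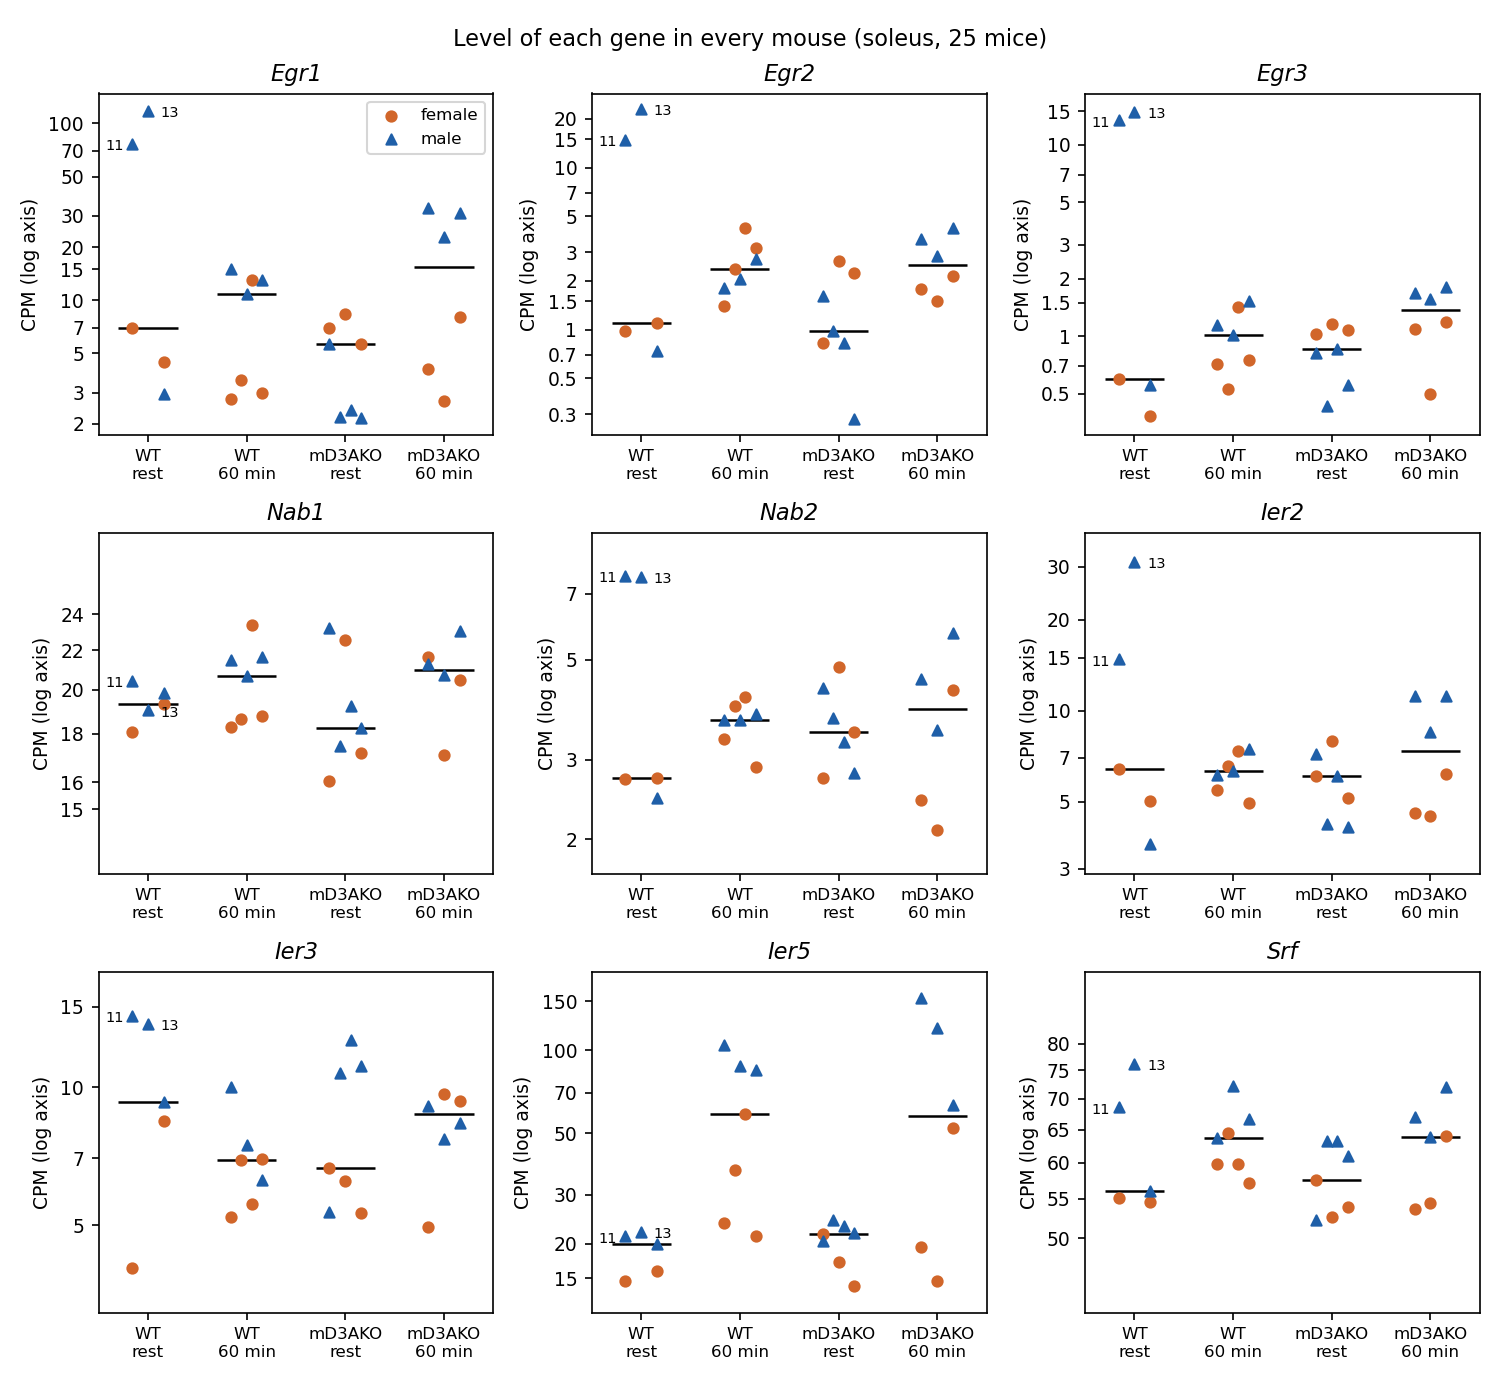
Level of each of the 9 detected genes in CPM (logarithmic axis) in every mouse, by genotype and exercise, with females as circles, males as triangles and the group median as a bar. Mice 11 and 13 lie above all other rested mice in *Egr1*, *Egr2*, *Egr3*, *Nab2*, *Ier2*, *Ier3* and *Srf*, but within the resting range in *Nab1* and *Ier5*.

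The corepressors differed from each other. *Nab1* (chr1:52457294-52500679) was even in all groups, at 19.3 ± 0.897 (SD, n = 5) CPM in rested WT, 20.4 ± 1.92 (n = 7) in exercised WT, 19.1 ± 2.75 (n = 7) in rested mD3AKO and 20.7 ± 2.00 CPM (n = 6) in exercised mD3AKO mice. At 20.4 and 19.0 CPM, mice 11 and 13 were not set apart in this gene. *Nab2* (chr10:127660918-127668568), which EGR proteins induce, was 7.65 and 7.61 CPM in mice 11 and 13 and 2.47 to 4.80 CPM in the other rested mice. Exercised mice lay between 2.09 and 5.74 CPM and overlapped the rest. Of the 2941 exon bases of *Nab2*, 42.2% are shared with genes on the opposite strand (*Stat6*, *Nemp1* and *Gm16229*), and the strand setting of the counting is not given in the sources used here, so part of its reads may be theirs.

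The IER genes followed 3 separate patterns. *Ier2* (chr8:84661331-84662852), a small nuclear protein gene of the immediate early class, was 14.8 and 31.2 CPM in mice 11 and 13 and 3.61 to 7.95 CPM in the other rested mice. After exercise it was 4.95 to 7.49 CPM in WT and 4.49 to 11.2 CPM in mD3AKO mice, with the 3 mD3AKO males at 8.53, 11.2 and 11.2 CPM above every rested mD3AKO mouse. *Ier3* (chr17:35821684-35822923), a stress-responsive gene linked to cell survival, was 14.3 and 13.8 CPM in mice 11 and 13, just above the other rested mice at 4.03 to 12.7 CPM. All 13 exercised mice, at 4.95 to 10.0 CPM, fell inside that resting range.

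*Ier5* (chr1:155096361-155099636), known as a partner of heat shock factor 1, was the member whose exercised mice separated most from rest. Rested mice held a narrow band from 14.1 to 24.4 CPM, mice 11 and 13 included at 21.2 and 22.1 CPM. Exercised WT females had 23.7, 36.7, 58.9 and 21.4 CPM, and exercised WT males 104, 87.8 and 84.6 CPM. Exercised mD3AKO females had 19.5, 14.7 and 52.5 CPM, and exercised mD3AKO males 154, 120 and 63.3 CPM. In all, 9 of 13 exercised mice lay above every rested mouse, including all 6 males, and the 4 that did not were females. Each exercised male was above each exercised female.

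*Srf* (chr17:46546839-46556162) itself was abundant and steady, at 62.1 ± 9.74 (SD, n = 5) CPM in rested WT, 63.4 ± 5.05 (n = 7) in exercised WT, 57.7 ± 4.87 (n = 7) in rested mD3AKO and 62.5 ± 7.20 CPM (n = 6) in exercised mD3AKO mice. It was 68.6 and 76.2 CPM in mice 11 and 13, and 52.2 to 63.3 CPM in the other rested mice. Of the 13 exercised mice, 8 lay above those 10 rested mice.

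Per kilobase of exon, *Srf* had the highest median of the genes at rest, 13.9 CPM per kb (12.8 to 18.6 CPM per kb), above *Ier3* at 7.84 and *Ier5* at 6.36 CPM per kb, neighbours whose ranges overlapped. After exercise *Ier5* had the highest median, 18.0 CPM per kb (4.48 to 46.9 CPM per kb), with *Srf* at 15.6 and *Ier3* at 6.63 CPM per kb, and the ranges of *Ier5* and *Srf* overlapped. Over all 25 libraries *Nab1* followed at 4.84 and *Ier2* at 4.08 CPM per kb. *Egr1* (1.55), *Nab2* (1.25), *Egr2* (0.606) and *Egr3* (0.233 CPM per kb) were lowest, although the highest *Egr1* level, 26.4 CPM per kb in mouse 13, passed that of *Srf* in every library.

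For exercise, the values below describe genes that were proposed with this response known, and their counts past the threshold of the fit over all genes are no independent evidence of it. With all 25 mice, *Ier5* alone of the 9 genes was called at a false discovery rate of 5%, with a log2 fold change of 1.73 ± 0.31 (SE), that is 3.32-fold higher after exercise. This was 1 of 9 where 10.4% of the 16340 genes were called in either direction and 5.7% were called higher. The log2 fold changes of the other members were -0.97 ± 0.46 for *Egr3*, -0.37 ± 0.44 for *Egr2*, -0.23 ± 0.52 for *Egr1*, -0.28 ± 0.25 for *Ier2*, -0.27 ± 0.18 for *Ier3*, -0.15 ± 0.19 for *Nab2*, 0.10 ± 0.06 for *Nab1* and 0.07 ± 0.06 for *Srf*. The sign for *Egr1* and *Egr2* turned in the fit with 8 groups of sex, genotype and exercise (0.08 and 0.17), and in 1 sex or the other for *Egr1*, *Egr2*, *Egr3*, *Nab2* and *Ier3*.

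Without mice 11 and 13 the log2 fold change after exercise was 1.34 ± 0.45 for *Egr1*, 1.19 ± 0.28 for *Egr2*, 0.80 ± 0.24 for *Egr3*, 0.36 ± 0.17 for *Ier2*, 0.26 ± 0.15 for *Nab2* and 0.16 ± 0.06 for *Srf*. *Nab1* was at 0.11 ± 0.07, and *Ier3* stayed below 0 at -0.04 ± 0.18. *Ier5* was almost the same at 1.81 ± 0.37. These values average over the sexes. In females, which do not include the pair, the 8-group fit with all mice gave -0.25 ± 0.55 for *Egr1*, 0.69 ± 0.51 for *Egr2* and 0.30 ± 0.51 for *Egr3*. *Egr2*, *Egr3* and *Ier5* were then called, 3 of 9 where 8.96% of 16839 genes were called. Leaving out mouse 13 alone turned *Egr1* to 0.22, *Egr2* to 0.08 and *Ier2* to 0.08.

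**Figure D2:**
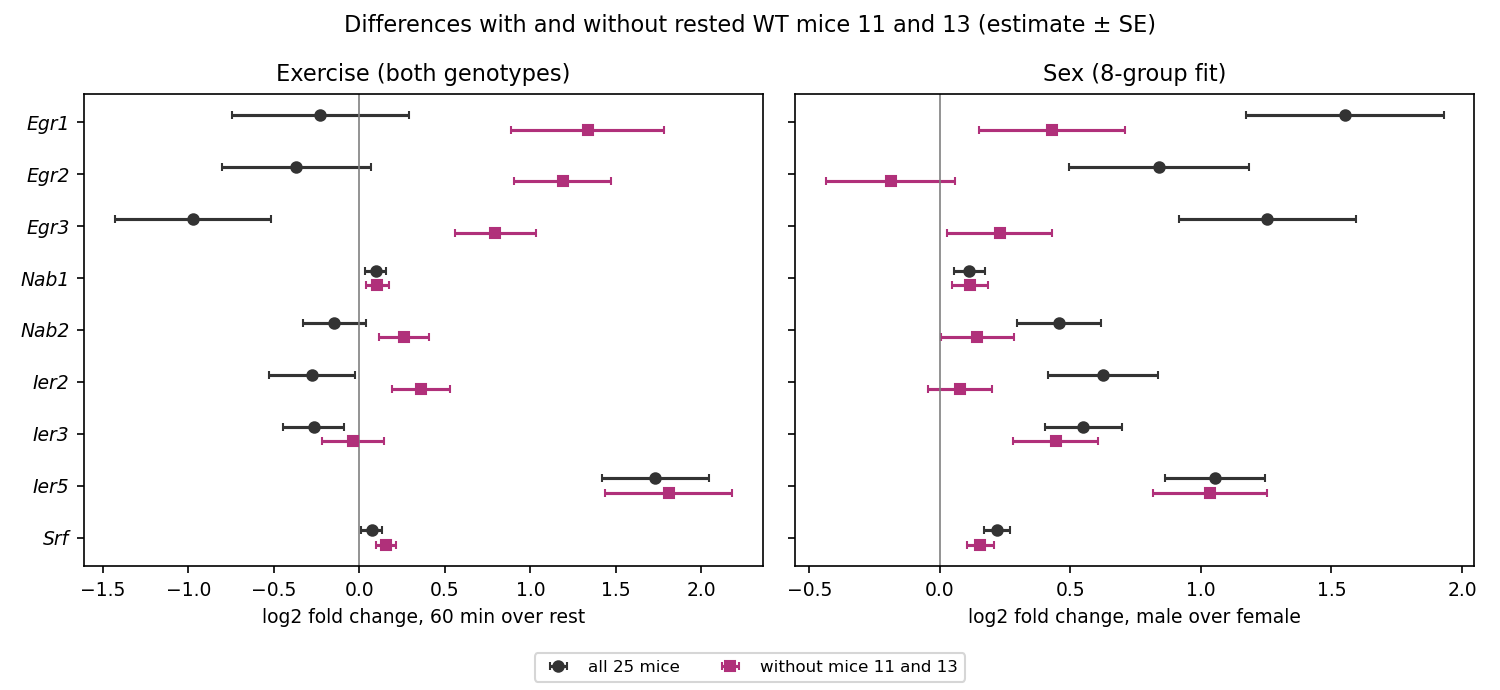
Log2 fold change (± SE) of each gene after exercise over rest (left) and in males over females (right), with all 25 mice (circles) and without rested WT mice 11 and 13 (squares). For exercise, *Egr1*, *Egr2* and *Egr3* move from below 0 to 1.34, 1.19 and 0.80, *Ier3* stays below 0 and *Ier5* stays near 1.8.

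No member was called for genotype. For mD3AKO against WT over rest and exercise, 0 of 9 members were called by edgeR where 0.269% of 16340 genes were called. At an unadjusted p under 0.05 there were 3, where 6.23% of genes were, and DESeq2 called 0. The largest differences were lower in mD3AKO: *Egr2* by a log2 fold change of -1.23 ± 0.44 (adjusted p = 0.493, edgeR), *Egr3* by -1.21 ± 0.45 (adjusted p = 0.570) and *Egr1* by -1.07 ± 0.52 (adjusted p = 0.800). Without mice 11 and 13 these 3 turned to 0.32, 0.55 and 0.49, and 0 members were called where 0.166% of genes were. At an unadjusted p under 0.05 there was then 1 member, *Egr3*, where 5.48% of genes were. At rest, *Egr1* differed by -3.10 ± 0.77 (adjusted p = 0.241, edgeR), *Egr3* by -2.78 ± 0.64 (adjusted p = 0.145) and *Egr2* by -2.53 ± 0.63 (adjusted p = 0.241), and 0 of 9 were called where 0.0918% of genes were (4 at an unadjusted p under 0.05, where 3.65% of genes were). Without mice 11 and 13 the differences at rest were 0.018 ± 0.68 for *Egr1*, 0.75 ± 0.38 for *Egr3* and 0.56 ± 0.45 for *Egr2* (adjusted p = 0.99941 for each, edgeR), with 0 of 9 members called where 0.0475% of genes were, and 0 members and 3.71% of genes at an unadjusted p under 0.05. After exercise, *Egr1* differed by 0.96 ± 0.71 (adjusted p = 0.978, edgeR), and 0 of 9 were called where 0.11% of genes were, with 0 members and 5.51% of genes at an unadjusted p under 0.05.

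Whether the response to exercise differed by genotype was tested by the interaction. Here edgeR called 0 of 9 members and 0% of 16340 genes, with 4 members and 2.47% of genes (403) at an unadjusted p under 0.05, and DESeq2 also called 0. The difference of the responses, mD3AKO minus WT, was 4.05 ± 1.04 for *Egr1*, 3.13 ± 0.91 for *Egr3*, 2.61 ± 0.87 for *Egr2* and 1.33 ± 0.50 for *Ier2* on the log2 scale (adjusted p = 0.99983 for each, edgeR). In WT the log2 fold change of *Egr1* after exercise was -2.25 ± 0.74 and in mD3AKO 1.80 ± 0.73. That of *Egr3* in WT was -2.54 ± 0.63, which passed the threshold together with *Ier5*, 2 of 9 where 3.59% of genes did. Leaving out mice 11 and 13 gave changes in WT of 0.87 ± 0.69 for *Egr1*, 1.00 ± 0.38 for *Egr3* and 1.82 ± 0.59 for *Ier5*, and 0 of 9 then passed where 2.43% of genes did (4 members and 11.1% of genes at an unadjusted p under 0.05). In mD3AKO *Ier5* alone passed with all mice, where 6.02% of genes did. Without the pair, *Egr1* (1.80 ± 0.54) also passed there, 2 of 9 where 5.63% of genes did. *Ier5* had 1.67 ± 0.46 in WT and 1.79 ± 0.42 in mD3AKO, a difference of 0.12 ± 0.60. Without mice 11 and 13 the interaction fell to 0.94 ± 0.85 for *Egr1* and 0.05 ± 0.34 for *Ier2* and turned to -0.40 ± 0.47 for *Egr3* and -0.49 ± 0.56 for *Egr2*, with 0 of 9 members and 2.67% of genes at an unadjusted p under 0.05.

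**Figure D3:**
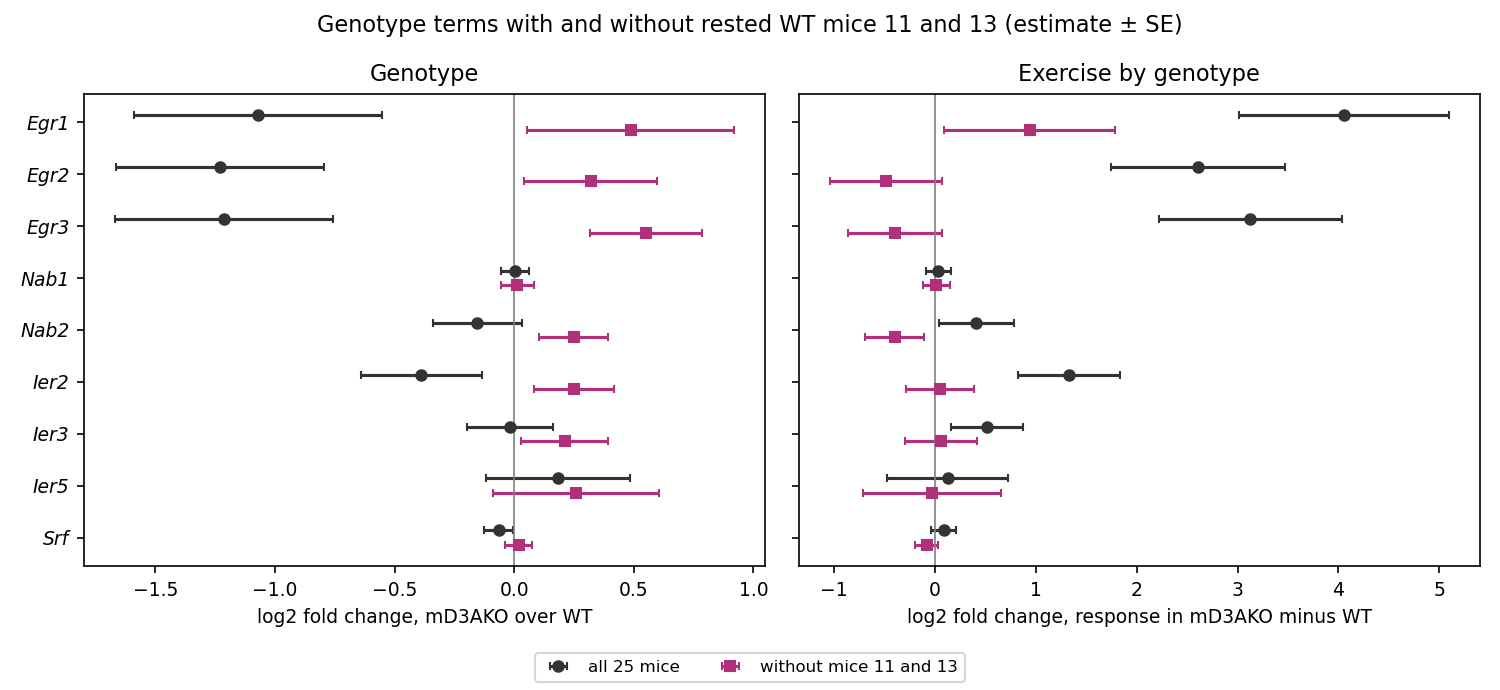
Log2 fold change (± SE) of each gene in mD3AKO over WT (left) and difference of the exercise response in mD3AKO from that in WT (right), with all 25 mice (circles) and without rested WT mice 11 and 13 (squares). The *Egr1* interaction of 4.05 drops to 0.94 without these mice, and *Nab1*, *Ier5* and *Srf* stay near 0 in both fits.

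Sex was tested in a fit with 8 groups of sex, genotype and exercise over 17389 genes. Higher levels in males were called for 5 of 9 members, where 8.15% of genes were called in either direction and 5.36% higher in males. These were *Egr1* (log2 fold change 1.55 ± 0.38, adjusted p = 0.0132, edgeR), *Egr3* (1.25 ± 0.34, adjusted p = 0.0238), *Ier5* (1.05 ± 0.19, adjusted p = 0.00149), *Ier3* (0.55 ± 0.15, adjusted p = 0.0231) and *Srf* (0.22 ± 0.05, adjusted p = 0.00977). *Egr2* (0.84 ± 0.34), *Ier2* (0.62 ± 0.21), *Nab2* (0.46 ± 0.16) and *Nab1* (0.11 ± 0.06, or -0.0077 with library totals alone) did not pass, with adjusted p between 0.0715 and 0.280. Mice 11 and 13 are males, and without them *Ier5* alone was called (1.03 ± 0.22, adjusted p = 0.0102, edgeR), 1 of 9 where 4.68% of 18178 genes were called. *Egr1* then differed by 0.43 ± 0.28 (adjusted p = 0.436) and *Egr3* by 0.23 ± 0.20 (adjusted p = 0.594). Leaving out mouse 20, a rested WT female, left 3 members called, where 834 of 18226 genes were. Without mouse 14, a rested WT male, 8 members were called, where 1175 of 17367 genes were. Library totals alone in place of TMM factors moved the median sex difference of all genes to -0.12 from -0.01. With these totals 2 members were called, *Egr1* (1.45, adjusted p = 0.0286, edgeR) and *Ier5* (0.94, adjusted p = 0.00716), where 748 of 17389 genes were. Slow fiber markers moved with sex as well: their sum was 20975 to 27060 CPM in males and 25937 to 41116 CPM in females, with 5 of 6 called lower in males. Of the markers of all muscle fibers, *Ckm*, *Myh2* and *Mb* were called higher in males, 3 of 5, and the satellite cell marker *Pax7* was called lower. With mice 11 and 13 set aside, 1 of 5 markers of all muscle fibers was called higher in males and 5 of 6 slow fiber markers were called lower. The part of these markers in the differences was not tested.

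The response to exercise was compared between the sexes in the same fit, where 0 of 9 members were called by edgeR and 0.046% of genes, with 2 members and 3.28% of genes at an unadjusted p under 0.05. For *Ier5* the log2 fold change was 2.22 ± 0.26 in males and 0.97 ± 0.28 in females, a difference of 1.26 ± 0.38 (adjusted p = 0.980, edgeR). Leaving out mouse 23, an exercised mD3AKO female at 52.5 CPM, widened this to 1.64 (adjusted p = 0.0324, edgeR). *Ier5* was then called, where 17 of 17377 genes were. Without mice 11 and 13 the differences were 2.92 ± 0.59 for *Egr1* (adjusted p = 0.167), 1.01 ± 0.25 for *Ier2* (adjusted p = 0.430) and 1.30 ± 0.46 for *Ier5* (adjusted p = 0.99996), and 0 members were called where 0.0055% of genes were, with 4 members and 2.89% of genes at an unadjusted p under 0.05. Among the rested mice, males other than mice 11 and 13 had 2.17 to 5.67 CPM of *Egr1* and females 4.48 to 8.40 CPM, whereas exercised males had 10.8 to 33.1 and exercised females 2.69 to 12.9 CPM.

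The spread between mice of the same group was large for some members and small for others. On the log2 CPM scale, the pooled within-group SD was 1.5 for *Egr1*, 1.22 for *Egr2* and 1.22 for *Egr3*, against a median of 0.22 over the tested genes, and 0.135%, 0.422% and 0.428% of these genes spread more. *Ier5* (0.85), *Ier2* (0.66), *Ier3* (0.49) and *Nab2* (0.49) were also above the median, and *Nab1* (0.15) and *Srf* (0.15) below it. For *Egr1* the SD was 2.45 in rested WT and 1.55 in exercised mD3AKO mice, and 1.10 and 0.84 in exercised WT and rested mD3AKO mice. Once mice 11 and 13 were left out, the SD of *Egr1* was 0.62 in the 3 rested WT mice left, and the pooled SDs were 1.13 for *Egr1*, 0.71 for *Egr2* and 0.53 for *Egr3*. *Ier5* had SDs of 0.26 and 0.28 in rested and 0.94 and 1.36 in exercised WT and mD3AKO mice.

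Over all exercised mice together, 7 of 8 members passed the test of a correlation with *Egr1*, and 5.82% of 16339 genes had an r at least as far from 0 as the weakest of these 7. Over the 13 exercised mice, log2 CPM of *Egr1* was correlated with that of *Ier5* (Pearson r = 0.901, permutation p = 0.00012, adjusted p = 0.00032; Spearman rho = 0.885, permutation p = 0.00016), *Egr3* (r = 0.899, permutation p = 7.0e-05, adjusted p = 0.00028; rho = 0.923, permutation p = 3.0e-05) and *Ier2* (r = 0.890, permutation p = 4.0e-05, adjusted p = 0.00028; rho = 0.846, permutation p = 0.00053). The values for *Nab1*, *Nab2*, *Srf* and *Egr2* were r = 0.769, 0.729, 0.709 and 0.644 with adjusted permutation p of 0.00492, 0.00558, 0.00999 and 0.0239, and rho = 0.703, 0.665, 0.604 and 0.643 with permutation p of 0.00912, 0.0161, 0.0329 and 0.0214. *Ier3* did not follow (r = 0.363, permutation p = 0.217; rho = 0.291, permutation p = 0.333). These 8 relations were adjusted together, two-sided, and all values of a mouse share 1 library. The members were chosen with their behaviour after exercise in these libraries known, so these tests are no independent evidence of a link between them. Without the 2 mice farthest from the *Egr1* median, r was 0.864 for *Ier5*, 0.868 for *Egr3*, 0.873 for *Ier2* and 0.455 for *Egr2*.

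Since 5 of 6 exercised males lay above every exercised female in *Egr1* (log2 fold change 1.88 ± 0.51, adjusted p = 0.0641, edgeR), the same relations were computed within each sex by exact permutation. In the 6 exercised males r was 0.933 for *Ier2* (exact p = 0.0153, adjusted p = 0.122), 0.841 for *Egr2* (exact p = 0.0417, adjusted p = 0.144), 0.824 for *Egr3* (exact p = 0.0542, adjusted p = 0.144), 0.240 for *Ier5* (exact p = 0.640) and -0.01 for *Srf* (exact p = 0.983). In the 7 exercised females r was 0.864 for *Ier5* (exact p = 0.0109), 0.855 for *Nab1* (exact p = 0.0119) and 0.845 for *Egr3* (exact p = 0.00972), each with an adjusted p of 0.0317, and 0.733 for *Ier2* (exact p = 0.0589) and 0.371 for *Srf* (exact p = 0.409). After adjustment over the 8 relations of each sex, none passed within males, and those with *Ier5*, *Nab1* and *Egr3* passed within females. The share of all genes reaching such an r within 1 sex was not computed. Without the 2 females farthest from their *Egr1* median, r in females was 0.359 for *Ier5*, 0.584 for *Egr3*, 0.130 for *Ier2* and 0.249 for *Egr2*, and 0.888 for *Nab1*.

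**Figure D4:**
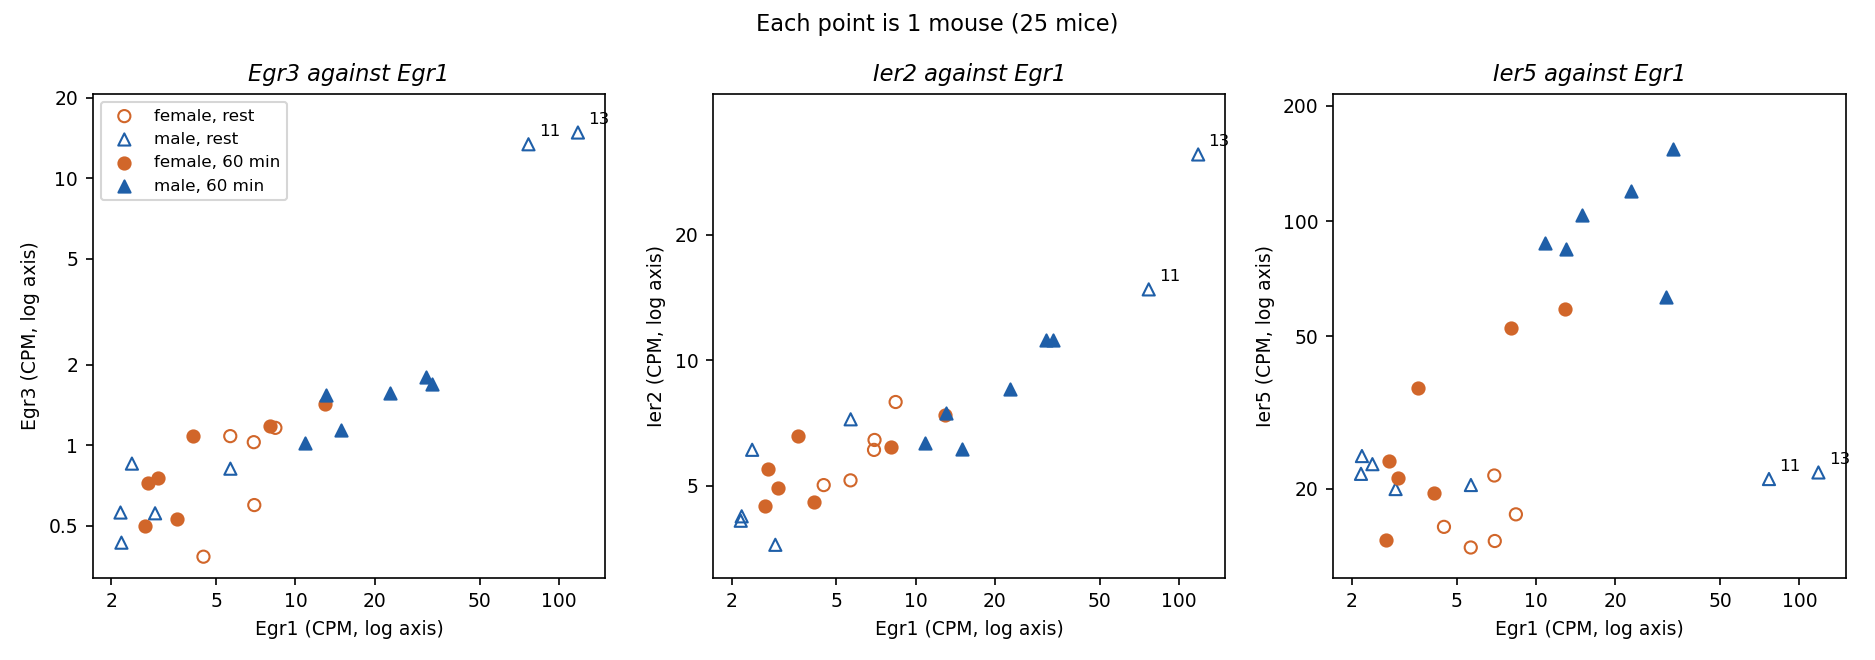
*Egr3*, *Ier2* and *Ier5* against *Egr1* in CPM (both axes logarithmic), 1 point per mouse, with rested mice open, exercised mice filled, females as circles and males as triangles. Mice 11 and 13 have the highest *Egr1*, *Egr3* and *Ier2* but lie at the resting level of *Ier5*, 21.2 and 22.1 CPM.

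Across all 25 libraries with the 4 group means removed, the genes whose deviations were most like those of *Egr1* were *Ier2* (Pearson r = 0.908), *Errfi1*, an inhibitor of the EGF receptor (0.906), *Thbs1*, the matrix protein thrombospondin 1 (0.896), *Egr3* (0.886) and *Plk3*, a stress-responsive kinase (0.877), out of 12686 genes ranked. *Nab2* was at rank 10 (0.846), *Egr2* at rank 22 (0.817), *Srf* at rank 105 (0.637), *Ier5* at rank 137 (0.612), *Nab1* at rank 687 (0.422) and *Ier3* at rank 2504 (0.241). Over the 23 libraries without mice 11 and 13, r was 0.848 for *Ier2*, 0.850 for *Egr3*, 0.875 for *Errfi1*, 0.758 for *Ier5*, 0.688 for *Nab2*, 0.595 for *Egr2*, 0.529 for *Nab1* and 0.375 for *Srf*, and -0.18 for *Ier3*. These are descriptions of likeness over libraries.

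Genes around the members were read from lists. Among 22 further immediate early genes, 14 were called higher and 0 lower after exercise, where 5.7% of all genes were called higher and 4.69% lower, with a median log2 fold change of 1.07 where that of all tested genes was -0.00088. *Atf3*, a stress-induced ATF family factor, changed by 4.30 ± 0.55, from a resting median of 13.9 CPM (6.96 to 36.5) to 272 CPM (19.7 to 818). *Fos*, the AP-1 subunit that SRF controls, changed by 3.35 ± 0.53, from 7.06 CPM (4.11 to 28.1) to 67.7 CPM (7.48 to 260). Mice 11 and 13 both lay above every other rested mouse in 15 of these 22 genes, against 1.76% of all tested genes. They were the 2 highest rested mice in *Fos*, between 17.5 and 28.1 CPM against at most 8.77 CPM in the other rested mice, but lay at 14.7 to 16.1 CPM in *Atf3*, inside the resting range, as for *Ier5*. In this list 14 of 22 genes were called higher in males, where 5.36% of all genes were, and 0 for genotype or interaction (edgeR). With mice 11 and 13 left out it was 18 of 22 higher after exercise, where 5.12% of all genes were higher and 3.84% lower, and 7 of 22 higher in males, where 3.06% of all genes were higher in males.

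Of the 6 SRF cofactor genes, 1 was called lower after exercise, *Elk3*, a ternary complex factor with repressor activity (log2 fold change -0.58 ± 0.07, 18.8 to 12.8 CPM in median), and 0 higher, with a list median of -0.06. Of 23 cytoskeletal targets of SRF and MRTF, 5 were called higher and 0 lower, with a median of 0.17, where 5.7% of all genes were higher and 4.69% lower, and 8 were called higher without mice 11 and 13, where 5.12% of all genes were. *Ccn2*, the connective tissue growth factor, changed by 1.62 ± 0.19 (45.8 to 169 CPM in median) and *Ccn1*, a matricellular relative, by 0.99 ± 0.32 (32.9 to 72.1 CPM). The 5 actin genes of the list, *Acta1* (0.05 ± 0.07), *Acta2* (0.11 ± 0.07), *Actb* (0.11 ± 0.12), *Actc1* (-0.13 ± 0.16) and *Actg1* (0.17 ± 0.13), were not called. Among 12 genes known as EGR1 targets, 2 were called higher and 1 lower, with a median of 0.16, against the same shares of all genes, and 4 higher and 1 lower without these mice, where 5.12% and 3.84% of all genes were. *Pdgfa*, a growth factor chain, changed by -0.25 ± 0.05. In 3 of these 12 genes mice 11 and 13 both lay above every other rested mouse, and in 5 of the 23 cytoskeletal targets. The share over all tested genes was 1.76%. *Thbs1*, among the 3 EGR1 targets, was 168 to 203 CPM in mice 11 and 13, and at most 91.2 CPM in the other rested mice.

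None of the 10 EGR2 targets of Schwann cells and 1 of 6 muscle spindle genes linked to EGR3 was called after exercise, where 10.4% of all genes were, that 1 being *Gdnf*, a neurotrophic factor (1.32 ± 0.27), with list medians of 0.12 and -0.11. Of the 3 relatives outside the members, *Wt1* reached at most 0.0601 CPM and was not tested, and *Ier5l* (-0.36 ± 0.18) and *Ier3ip1* (-0.01 ± 0.06) were not called. In none of these lists was a gene called for genotype or for the interaction.

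Markers of other cell types were read beside these results. Fewer cells of a type and less RNA per cell cannot be told apart in whole muscle. The 5 endothelial markers summed to 323 to 443 CPM at rest and 277 to 362 CPM after exercise, with 4 of 5 called lower, where 4.69% of all genes were, and none at 0. Without mice 11 and 13 it was 3 of 5, where 3.84% of all genes were. Both satellite cell markers, *Pax7* and *Myf5*, were called lower after exercise, and of the 4 smooth muscle and pericyte markers 1 was. None of the markers of slow fibers, all muscle fibers, fibroblasts, immune cells, Schwann cells, adipocytes or blood was called for exercise. The satellite cell marker *Pax7* was also called higher in mD3AKO (log2 fold change 0.48 ± 0.11, adjusted p = 0.0384, edgeR), and without mice 11 and 13 it was not (0.42 ± 0.11, adjusted p = 0.259). The part of the markers in the members' values was not tested. The sum of the 4 Schwann cell markers ranged from 12.1 to 257 CPM between mice, and mice 11 and 13, between 17.6 and 21.2 CPM, were at the low end. The slow fiber sum was between 20975 and 23688 CPM in mice 11 and 13, 1 of which had the lowest sum of all 25 libraries. It was 22256 to 41116 CPM in the other rested mice of both sexes. Mice 11 and 13 are males, and over all males this sum ran only from 20975 to 27060 CPM. In mice 11 and 13 the endothelial sum was 375 to 443 CPM, against 323 to 418 CPM in the other rested mice, and the fibroblast and blood sums lay within the range of those mice.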

How the data were processed

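RNA from the *soleus* of 25 mice was depleted of ribosomal RNA and sequenced as 75-bp pairs. The authors deposited 1 table of read counts per gene for all libraries, without normalization; gene models were GENCODE release 15 on mm10, and the submitters' processing notes name FastQC 0.11.5, STAR 2.5.3a and featureCounts 1.5.3, while the strand setting of the counting is not given in the sources used here. Groups, sex and mouse numbers came from the sample labels. Symbols were matched through GENCODE release 21.

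Genes with enough counts in the 4 groups (edgeR filterByExpr, minimum count of 10) were scaled with TMM factors and tested with edgeR 4.0.16 in R 4.3.3 (quasi-likelihood F test, Benjamini-Hochberg adjustment over all genes, 1 mean per group). Exercise and genotype effects are averages over the other factor. Sex was tested with 8 groups. The method was tested on simulated counts with a known exercise change in some genes. No sex effect and no pair of extreme mice were built in, so that run does not bear on either. Correlations used log2 CPM with a prior count of 2 and 100000 resamples, or full enumeration within a sex. DESeq2 1.42.0 and other settings were tried. Named were all members, the 2 genes with the largest called exercise change in each list, list genes called for genotype or interaction, the 5 genes most like *Egr1*, and *Dnmt3a*; others are named to describe a list. A gene that this rule names is not reported here. The members and lists were chosen with earlier results of these data known.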

Additional observations from a re-analysis of the deposited data

Results flagged for a closer look

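*Ier3* in mouse 3, an exercised female mD3AKO mouse, was 4.95 CPM, below the 7.71 to 9.67 CPM of the other 5 mice of its group. It was singled out because its gap to the nearest mouse took 0.662 of the range of the 6 mice on the log2 scale, above the limit of 0.625. In all, 36 combinations of gene and group were examined this way, and chance singles out about 1 in 20. The rested WT mice 11 and 13 were not singled out, since the measure looks for 1 extreme mouse and these are 2.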

How the results depend on the processing

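No paired analysis was possible because every mouse has its own number and the groups share none. In other normalizations, filters and tools the counts of members called for exercise (1), genotype (0) and interaction (0) did not change. Over all genes, 927 (no TMM) to 1921 (DESeq2) were called for exercise, 29 to 81 for genotype and 0 for the interaction. *Egr3* was not tested with a minimum count of 50. In females alone 0 members were called for exercise, where 512 of 16895 genes were. There *Egr2* was at 0.68, *Egr3* at 0.29, *Nab2* at 0.033 and *Ier3* at 0.19, and in males alone *Egr1* was 0.40. With 8 groups of sex, genotype and exercise the exercise values of *Egr1* and *Egr2* were 0.080 and 0.17. Without rested WT mice 11 and 13 (chosen after the data were seen) 3 members were called for exercise, where 8.96% of genes were. There *Egr1* was at 1.34, *Egr2* at 1.19, *Egr3* at 0.80, *Nab2* at 0.26 and *Ier2* at 0.36.

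For genotype, values that changed sign without these mice were 0.49 for *Egr1*, 0.32 for *Egr2*, 0.55 for *Egr3*, 0.25 for *Nab2* and *Ier2*, 0.21 for *Ier3* and 0.019 for *Srf*. In females alone they were 0.049 for *Egr1*, 0.11 for *Egr2*, 0.62 for *Egr3*, -0.0099 for *Nab1*, 0.068 for *Nab2*, 0.16 for *Ier3* and -0.044 for *Ier5*. *Nab1* was -0.023 without TMM, and *Ier3* was 0.024 with 8 groups.

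For the interaction, values that changed sign without mice 11 and 13 were -0.49 for *Egr2*, -0.40 for *Egr3* and *Nab2*, -0.032 for *Ier5* and -0.082 for *Srf*. In females alone they were -0.47 for *Egr1*, -1.51 for *Egr2*, -1.05 for *Egr3*, -0.70 for *Nab2*, -0.42 for *Ier2*, -0.49 for *Ier5* and -0.064 for *Srf*. *Ier5* was -0.089 with sex as an additive term and -0.15 with 8 groups.

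For sex, 2 members were called without TMM, where 748 of 17389 genes were, with *Nab1* at -0.0077. Without mice 11 and 13 it was 1 member, where 4.68% of genes were called, with *Egr2* at -0.19. For sex by exercise without these mice the values that changed sign were 1.02 for *Egr2*, 0.93 for *Egr3*, 0.43 for *Nab2*, 1.01 for *Ier2* and 0.11 for *Srf*.

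When each mouse was left out in turn, the members called were 1 for exercise, 0 for genotype and interaction, 3 to 8 for sex and 0 to 1 for sex by exercise. For sex, 3 were called without mouse 20, where 834 of 18226 genes were, and 8 without mouse 14, where 1175 of 17367 were. Over all genes, 1539 to 1804 were called for exercise, 35 to 48 for genotype and 0 for the interaction in these fits. The 1 member called for sex by exercise came without mouse 23, where 17 of 17377 genes were called. The values that changed sign ranged for exercise from -0.38 to 0.22 (*Egr1*), -0.52 to 0.081 (*Egr2*) and -0.40 to 0.079 (*Ier2*). They ranged for genotype from -0.023 to 0.027 (*Nab1*), -0.12 to 0.066 (*Ier3*) and -0.014 to 0.29 (*Ier5*), and for the interaction from -0.0019 to 0.085 (*Nab1*), -0.27 to 0.34 (*Ier5*) and -0.0014 to 0.13 (*Srf*). For sex by exercise they ranged from -0.043 to 0.087 (*Nab1*), -0.32 to 0.34 (*Ier2*) and -0.064 to 0.044 (*Srf*). The cause of these changes was not tested. The correlations with *Egr1* kept their sign and side of the threshold with a prior count of 0.5 and when centred on the genotype mean.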
